A study of Mus musculus with 6 samples.

Results

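The S100 genes are a family of small calcium-binding proteins, and 10 of them were followed here through macrophage cultures and the marrow they were grown from. The members were chosen by gene name from the deposited table: S100a1, S100a3, S100a4, S100a6, S100a8, S100a9, S100a10, S100a11, S100a13 and S100b, that is 10 of 55536 named genes. All cells came from C57BL/6 mice 8 weeks old, and the macrophages were grown from bone marrow for 7 days. The groups were macrophages grown with GM-CSF and given IL6 for 3 h, the same macrophages without IL6 (GM-BMDM), macrophages grown with M-CSF (M-BMDM), the M-CSF type given IL6 for 3 h or for 24 h, and bone marrow cells labelled control (BM). Total RNA was sequenced with 1 library per group, so no value below has a replicate. The sources used here do not say how many mice stood behind a library or whether cells were sorted. The 6 libraries held between 18567482 and 24196082 counts.

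S100 proteins are built around a pair of EF hands, the loops that bind calcium, and mostly work as dimers. Inside the cell they change shape with calcium and dock onto partners such as annexins and myosin. Some are also released and act on neighbouring cells through receptors such as RAGE and TLR4. S100a8 and S100a9 pair to form calprotectin, a major cytosolic protein of neutrophils, which also takes zinc and manganese away from microbes. Levels are given below as CPM, counts scaled to a common library size by the TMM method, and as TPM, which also divides by gene length and allows genes to be compared. The S100 transcripts are short, and length effects beyond this division were not modelled.

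Marrow and cultures carried different S100 transcripts. S100a8 and S100a9 dominated marrow and were nearly gone from every culture, while S100a4, S100a1 and S100a10 were several-fold higher in both untreated cultures. S100a11 was close to its marrow level in GM-CSF cultures and several-fold lower in M-CSF cultures. S100a6 differed by less than 2-fold between each untreated culture and marrow, and S100a13 stood near 2-fold in GM-BMDM and below it in M-BMDM. IL6 for 3 h left each member that reached 5 CPM within 2-fold, and among such members the largest difference at 24 h was in S100a10.

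**Figure D1:**
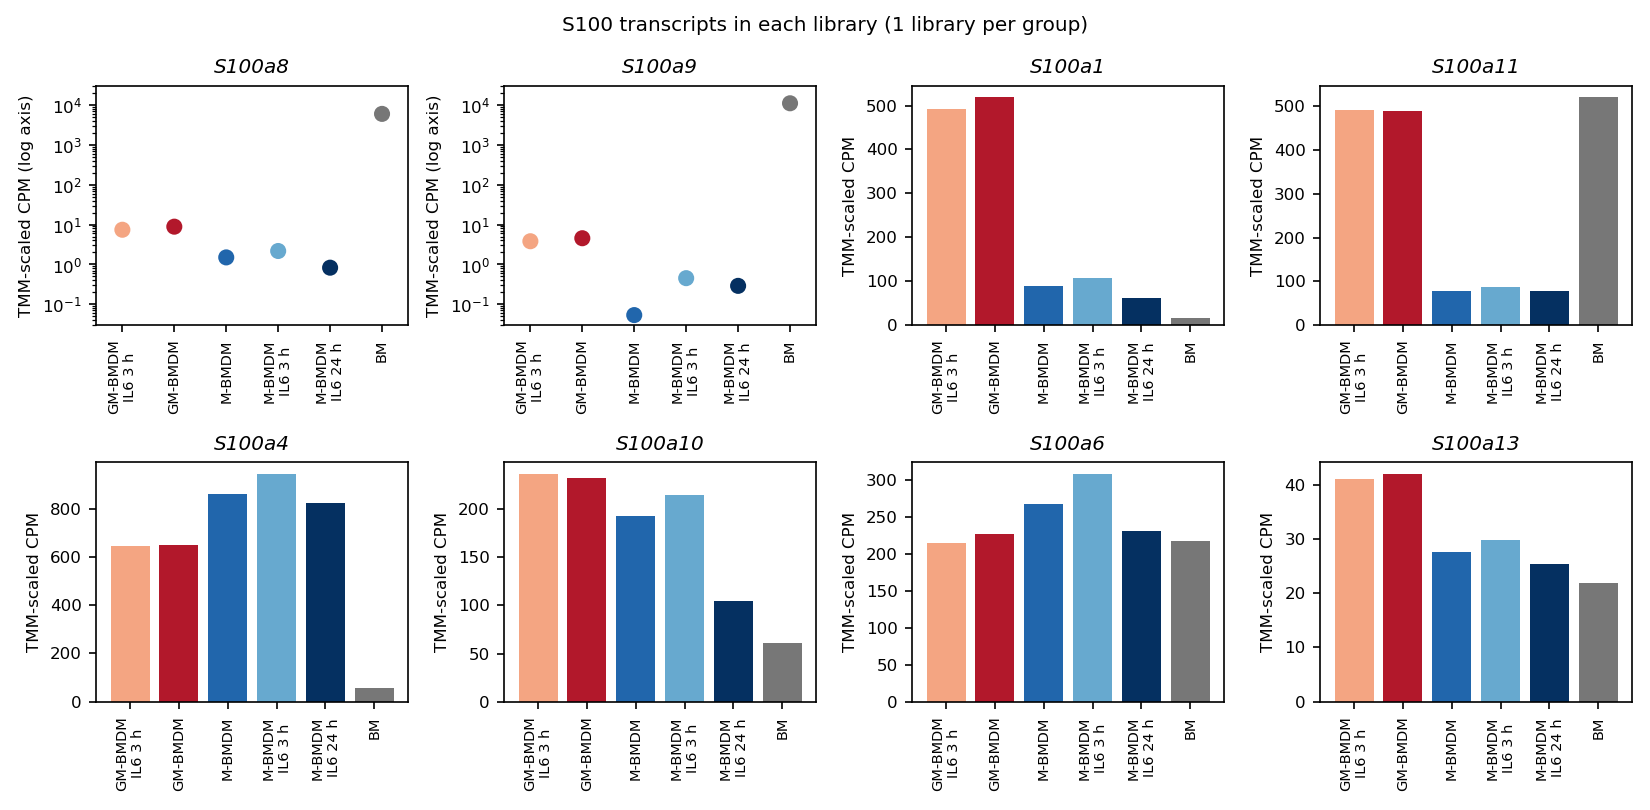
TMM-scaled CPM of 8 S100 genes (vertical axes, log axes for S100a8 and S100a9) in the 6 libraries (horizontal axes), 1 bar or point per library and no error bar since there were no replicates. S100a8 and S100a9 stand at no more than 8.87 and 4.55 CPM in any culture against 5992 and 11059 CPM in BM, and S100a1 and S100a11 are highest among the cultures in both GM-BMDM libraries.

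The genes of calprotectin lie close together. S100a8 (chromosome 3, 90668978 to 90670035, forward strand, GRCm38 with GENCODE M21 positions) and S100a9 (90692632 to 90695721, reverse strand) are separated by 22.6 kb. Their upstream sequences, from RefSeq (GRCm38.p6), are shown because both genes have the steepest difference between cultures and marrow. Each stretch runs 5′ to 3′ on the gene's strand up to the first annotated exon base, and capitals mark matches to the motifs described after them.
S100a8, chr3:90668821-90668977, forward strand: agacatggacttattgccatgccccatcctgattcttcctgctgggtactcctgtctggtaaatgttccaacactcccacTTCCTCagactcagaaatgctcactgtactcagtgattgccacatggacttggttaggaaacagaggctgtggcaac
S100a9, chr3:90695722-90695971, reverse strand: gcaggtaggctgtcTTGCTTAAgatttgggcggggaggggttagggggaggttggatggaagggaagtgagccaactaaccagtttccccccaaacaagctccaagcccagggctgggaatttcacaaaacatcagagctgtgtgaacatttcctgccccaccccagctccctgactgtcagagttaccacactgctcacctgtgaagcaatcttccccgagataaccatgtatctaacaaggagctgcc

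The windows searched ran from 250 bases before each RefSeq start to 50 bases after it, counted with the first transcribed base as 1. Both strands were searched for a C/EBP motif (TTNNGCAA), a STAT motif (TTCNNNGAA), an ETS motif (GAGGAA) and a TATA motif (TATAAA). The windows of S100a8 and S100a9 shared a TATA match only, at -30 in S100a8 and at 1 in S100a9. A C/EBP match was found in S100a9 at -236, and ETS matches in S100a8 at -170 and -36. Among 32851 windows of the same length, 10.8% held the C/EBP motif, 28.3% the ETS motif, 13.6% the TATA motif and 8.30% the STAT motif. None of the 9 members with a window held a STAT match, and matches did not overlap one another. The matches at -36 and -30 in S100a8 and at 1 in S100a9 lie past the printed stretches. These matches are letters in a window and not measured sites.

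S100a8 had 136 counts (7.43 CPM) in GM-BMDM after 3 h of IL6, 193 (8.87 CPM) in GM-BMDM, 28 (1.504 CPM) in M-BMDM, 48 (2.18 CPM) after 3 h of IL6, 20 (0.830 CPM) after 24 h, and 145640 (5992 CPM) in BM. S100a9 had 70 counts (3.82 CPM) in GM-BMDM after 3 h of IL6, 99 (4.55 CPM) in GM-BMDM, 1 (0.0537 CPM) in M-BMDM, 10 (0.453 CPM) after 3 h of IL6, 7 (0.291 CPM) after 24 h, and 268784 (11059 CPM) in BM. Every culture was thus far below marrow for both genes, and the GM-CSF cultures were above the M-CSF cultures. Together they made up 0.00121% of the counts in GM-BMDM (95% exact Clopper-Pearson interval 0.00108 to 0.00136), 0.000157% in M-BMDM (0.000105 to 0.000225) and 1.93% in BM (1.92 to 1.93). Intervals here and below describe counting error alone, because 1 library per group gives no spread between cultures. Amplified reads that carry no molecular tag are not separate molecules, so the intervals may be too narrow even for counting error.

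S100a8 was 3985-fold lower in M-BMDM than in BM (log2 ratio -11.96, exact 95% interval -12.55 to -11.43) and 675.2-fold lower in GM-BMDM relative to BM (-9.40, -9.61 to -9.20). S100a9 was 2429-fold lower in GM-BMDM relative to BM (-11.25, -11.55 to -10.96). Its single count in M-BMDM gave -17.65 against BM, with the wide interval of -22.96 to -15.17. In bulk RNA, fewer cells of a type and less RNA per cell cannot be told apart.

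Neutrophil transcripts moved with these 2 genes, as did those of other marrow cell types. Of 16 listed neutrophil genes, 14 were lower by 2-fold or more in GM-BMDM relative to BM and all 16 in M-BMDM relative to BM, where 22.3% and 23% of all genes that reached 5 CPM in either library were lower. Their summed level was 643 CPM in GM-BMDM after 3 h of IL6, 606 in GM-BMDM, 166 in M-BMDM, 164 after 3 h of IL6, 76.3 after 24 h and 24824 in BM. Ly6g and Retnlg, which mark mature neutrophils, had 0 counts in every culture. Most of the sum in GM-BMDM was Mmp8, a collagenase of neutrophil granules, at 513 CPM against 860.5 CPM in BM. All 7 listed genes of neutrophil precursors were lower in both cultures, with sums of 4.78 CPM in GM-BMDM, 0.591 CPM in M-BMDM and 3215 CPM in BM. All 9 erythroid and all 9 B cell genes were lower than in BM in both cultures too. GM-BMDM had all 8 monocyte genes lower, and of 8 eosinophil genes 7 lower and 1 higher. M-BMDM had all 8 eosinophil genes lower, and of 8 monocyte genes 7 lower and 1 higher. The part of cell mixture in the S100a8 and S100a9 differences was not tested.

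The proportion of the 2 calprotectin transcripts also differed. Per base of transcript, S100a9 over S100a8 was 0.482 (95% interval 0.356 to 0.648) in GM-BMDM after 3 h of IL6, 0.480 (0.373 to 0.615) in GM-BMDM and 1.73 (1.72 to 1.74) in BM. In the M-CSF series it was 0.0334 (0.000818 to 0.202) without IL6, 0.195 (0.0880 to 0.391) after 3 h and 0.328 (0.117 to 0.807) after 24 h. S100a9 was therefore the more abundant of the pair in marrow and the less abundant in each culture, with intervals of every culture below that of BM.

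Whether the cells matched their labels was read from markers. Of 14 macrophage genes, 12 were higher in GM-BMDM relative to BM, 11 were higher in M-BMDM than in BM, and 0 were lower in either, against 19.8% and 20.1% of all genes higher in these comparisons. Beside them, 10 dendritic cell genes summed to 1326 CPM in GM-BMDM, 38.8 CPM in M-BMDM and 126.6 CPM in BM. Itgax alone gave 994 CPM of the sum in GM-BMDM against 20.4 CPM in BM, while Flt3 had 0.322 CPM in GM-BMDM against 25.3 CPM in BM. Of these 10 genes, 4 were higher and 3 lower in GM-BMDM relative to BM, with a median log2 ratio of -0.14. In this comparison 19.8% of all genes were higher and 22.3% lower. Of 8 monocyte genes, 6 were higher and 1 lower in GM-BMDM relative to M-BMDM, where 10.8% of all genes were higher and 8.65% lower. The 8 monocyte genes summed to 1286 CPM in GM-BMDM, 412 CPM in M-BMDM and 4714 CPM in BM. The 9 erythroid genes summed to at most 10.4 CPM in any culture against 81777 CPM in BM. The 8 eosinophil genes summed to at most 124 CPM in any culture against 4134 CPM in BM, and the 9 B cell genes to under 1 CPM against 864 CPM.

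Against marrow, 3 of the 10 members were higher by 2-fold or more in M-BMDM (S100a1, S100a4 and S100a10) and 3 were lower (S100a8, S100a9 and S100a11). A gene counted here when its interval excluded equal levels and the higher library had at least 5 CPM, which 8 of the 10 reached. By the same rule 20.1% of the 11245 genes that reached this level were higher and 23% lower. In GM-BMDM against BM, these 3 members were higher as well and 2 were lower (S100a8 and S100a9), while 19.8% of 11367 genes were higher and 22.3% lower. Both comparisons share the BM library. The median log2 ratio was -0.14 over the 10 members and 0.02 over all genes in M-BMDM against BM. It was -0.02 and -0.04 in GM-BMDM against BM. Higher genes made up 47% of those counted in GM-BMDM against BM with TMM and 32.9% with total counts, where the median ratio of all genes was -0.38. No member changed its call between these scalings.

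**Figure D2:**
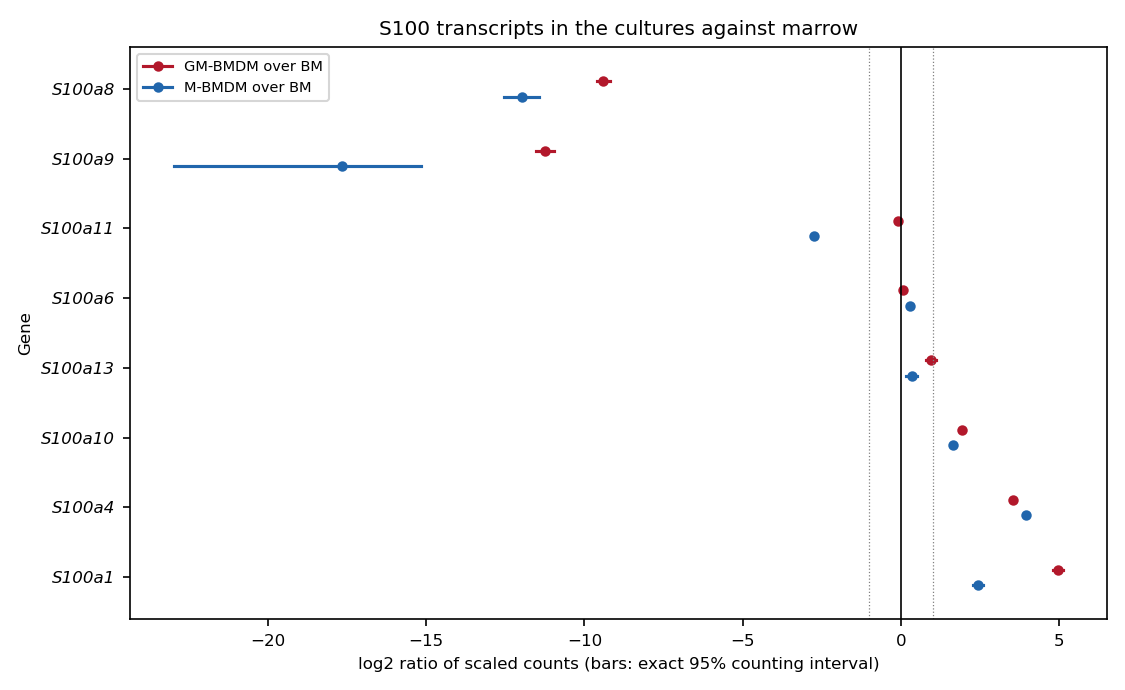
Log2 ratio of scaled counts (horizontal axis) of 8 S100 genes (vertical axis) in GM-BMDM over BM (red) and M-BMDM over BM (blue), 1 library each, with bars for the exact 95% counting interval and dotted lines at 2-fold. S100a8 and S100a9 lie at -9.40 or lower, S100a1, S100a4 and S100a10 lie above 1 in both cultures, and S100a11 is at -0.09 in GM-BMDM but -2.75 in M-BMDM.

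S100a4 binds the heavy chain of non-muscle myosin and is known for its part in cell movement. It lies at chromosome 3, 90603771 to 90606045 on the forward strand, and its upstream stretch is shown because it was the leading S100 transcript of the cultures. The capitals mark a TATA match at -31.
S100a4, chr3:90603520-90603769, forward strand: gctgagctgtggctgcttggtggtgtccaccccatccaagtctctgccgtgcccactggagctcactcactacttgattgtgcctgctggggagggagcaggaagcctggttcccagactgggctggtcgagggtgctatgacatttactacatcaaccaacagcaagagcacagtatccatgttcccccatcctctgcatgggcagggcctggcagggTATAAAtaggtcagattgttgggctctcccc

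S100a4 stood at 644 CPM in GM-BMDM after 3 h of IL6, 651 in GM-BMDM, 862 in M-BMDM, 945 after 3 h of IL6, 822 after 24 h and 56.3 in BM. It was 15.3-fold higher in M-BMDM than in BM (log2 ratio 3.94, 3.86 to 4.02) and 11.6-fold higher in GM-BMDM relative to BM (3.53, 3.45 to 3.61). Per length it was the highest S100 transcript in all 5 cultures, with 2174.5 TPM in GM-BMDM and 3515 TPM in M-BMDM, ranks 44 and 22 among all genes, against 201 TPM in BM. Myh9, the myosin heavy chain that S100a4 binds, was lower in M-BMDM after 24 h of IL6 (883 CPM) than in untreated M-BMDM (2068 CPM). Of 14 listed partners of S100 proteins inside the cell, 0 were higher and 1 was lower there, where 11.5% of all genes were higher and 8.93% lower.

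S100a6, or calcyclin, is a neighbour of S100a4 (90612882 to 90624181, forward strand) first known as a growth-induced transcript. It varied least among the abundant members, with 215 CPM in GM-BMDM after 3 h of IL6, 227 in GM-BMDM, 268 in M-BMDM, 308 after 3 h of IL6, 230.5 after 24 h and 218 in BM. The log2 ratio to BM was 0.30 (0.24 to 0.35) in M-BMDM and 0.06 (0.0002 to 0.11) in GM-BMDM, and total-count scaling turned the second to -0.27. Per length, S100a4 over S100a6 was 4.22 in GM-BMDM (4.08 to 4.36), 4.72 in M-BMDM (4.57 to 4.88) and 0.379 in BM (0.357 to 0.403).

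S100a1, best known from heart and skeletal muscle where it acts on calcium release, and S100a13, which helps export growth factors that lack a signal peptide, start back to back. S100a1 lies at chromosome 3, 90511034 to 90514392 on the reverse strand, and S100a13 at 90514435 to 90524581 on the forward strand. The 42 bases between their annotated ends are shown because this one spacer separates genes with different levels and ratios, and no motif matched in them.
S100a1 and S100a13, chr3:90514393-90514434, reverse strand: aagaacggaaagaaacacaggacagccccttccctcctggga

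S100a1 had 493 CPM in GM-BMDM after 3 h of IL6, 519 in GM-BMDM, 90.1 in M-BMDM, 108 after 3 h of IL6, 62.1 after 24 h and 16.7 in BM. Both GM-CSF libraries were above every M-CSF library, and all cultures were above marrow. It was 31.1-fold higher in GM-BMDM relative to BM (log2 ratio 4.96, 4.82 to 5.11) and 5.404-fold higher in M-BMDM than in BM (2.43, 2.28 to 2.59). S100a13 had 41.0 CPM in GM-BMDM after 3 h of IL6, 42.0 in GM-BMDM, 27.6 in M-BMDM, 29.9 after 3 h of IL6, 25.3 after 24 h and 21.9 in BM, so it followed the same order over a much narrower range. Its ratio of 1.92 in GM-BMDM over BM (log2 0.94, 0.78 to 1.10) stayed just under the 2-fold limit, and in M-BMDM over BM it was 1.26. Upper-quartile scaling put the log2 ratio in GM-BMDM over BM at 1.0031 and TMM over this pair alone at 1.0056, so that S100a13 passed the limit and 4 members were counted as higher. Per length, S100a1 over S100a13 was 13.04 in GM-BMDM (12.19 to 13.97), 3.45 in M-BMDM (3.12 to 3.81) and 0.804 in BM (0.705 to 0.917). The deposited files do not state whether counting used strand, but the annotated genes do not overlap.

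S100a10 and S100a11 are the members best known as annexin partners. S100a10, also called p11, has EF hands that no longer bind calcium and joins Anxa2 in a complex at the membrane. S100a11 binds Anxa1. They lie 28.8 kb apart at chromosome 3, 93555080 to 93564643 and 93520488 to 93526287, both on the forward strand and 2.82 Mb from S100a9. The stretch before S100a11 is shown because, among the abundant members, this gene differed most between GM-CSF and M-CSF cultures, and capitals mark an ETS match at -153.
S100a11, chr3:93520246-93520487, forward strand: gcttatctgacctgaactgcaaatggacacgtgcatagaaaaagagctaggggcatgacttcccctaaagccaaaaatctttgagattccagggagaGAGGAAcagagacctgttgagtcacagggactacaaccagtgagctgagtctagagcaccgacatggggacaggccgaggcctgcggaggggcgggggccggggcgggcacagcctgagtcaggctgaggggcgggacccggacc

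S100a11 stood at 491.5 CPM in GM-BMDM after 3 h of IL6, 489 in GM-BMDM, 77.4 in M-BMDM, 87.2 after 3 h of IL6, 78.8 after 24 h and 519.7 in BM. The GM-CSF libraries were near marrow and the M-CSF libraries far below it. The log2 ratio was -2.75 (-2.83 to -2.67) in M-BMDM over BM, 6.72-fold lower, and -0.09 (-0.12 to -0.05) in GM-BMDM over BM. Some of its deposited counts were not whole, such as 10636.37 in GM-BMDM, and the annotation lists a pseudogene copy, S100a11-ps, so its values are less certain than those of the other members. Its promoter window held 15 CpG pairs, that of S100a13 14 and that of S100a1 11, against 4 for S100a8, 2 each for S100a9 and S100a4, and a median of 7 over all windows. S100a6 had 6, S100b 3 and the windows of S100a3 from 0 to 5. The windows of S100a1 (90514281 to 90514580) and S100a13 (90514185 to 90514484) overlap, so CpG pairs in the shared bases count for both. S100a10 had 237 CPM in GM-BMDM after 3 h of IL6, 233 in GM-BMDM, 193 in M-BMDM, 215 after 3 h of IL6, 105 after 24 h and 61.1 in BM. It was 3.81-fold higher in GM-BMDM relative to BM (1.93, 1.85 to 2.01) and 3.16-fold higher in M-BMDM than in BM (1.66, 1.57 to 1.75).

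The balance of these 2 members differed between cultures. Per length, S100a11 over S100a10 was 2.78 in GM-BMDM after 3 h of IL6, 2.82 in GM-BMDM and 11.4 in BM. In M-BMDM it was 0.537 without IL6, 0.544 after 3 h and 1.01 after 24 h (0.949 to 1.07). S100a10 over Anxa2 was 0.902 in GM-BMDM (0.873 to 0.932), 0.584 in M-BMDM (0.563 to 0.606) and 0.366 in BM (0.346 to 0.387).

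**Figure D3:**
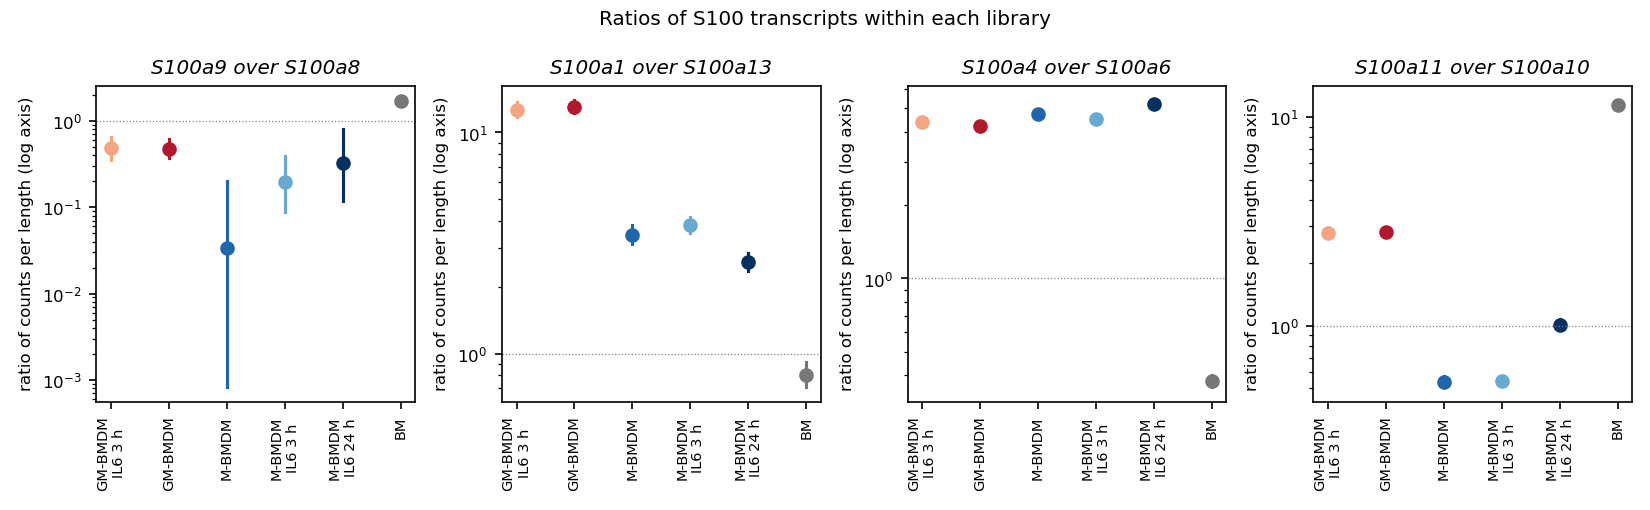
Ratio of 2 S100 transcripts within each of the 6 libraries, as counts per base of transcript (vertical log axes), with bars for the exact 95% counting interval and a dotted line at 1 where it falls in the plotted range. S100a9 over S100a8 and S100a11 over S100a10 are highest in BM, at 1.73 and 11.4, while S100a1 over S100a13 is highest in the GM-BMDM libraries, at 12.7 and 13.04.

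S100a3, known from the hair cuticle, and S100b, a protein of glial cells, were barely detected. S100a3 had 2 counts in GM-BMDM after 3 h of IL6, 0 in GM-BMDM, 3 in M-BMDM, 1 after 3 h of IL6, 0 after 24 h and 7 in BM. S100b (chromosome 10, 76253853 to 76261159) had 4 counts in GM-BMDM, 1 in M-BMDM, 1 in M-BMDM after 24 h of IL6, 0 in both 3 h libraries and 15 in BM. Neither reached 1 CPM in any library, so no ratio is given for them. Of 7 further S100 genes that were looked up, only S100a16 passed 1 CPM anywhere, at 1.07 CPM in BM, and S100z had 0 counts in all 6 libraries.

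The order of the members per length showed how the family was arranged in each library. In GM-BMDM it was S100a4 (2174.5 TPM), S100a11 (1593), S100a1 (1275), S100a10 (566), S100a6 (516), S100a13 (97.7), S100a8 (30.4) and S100a9 (14.6). In M-BMDM it was S100a4 (3515 TPM), S100a6 (745), S100a10 (573), S100a11 (308), S100a1 (270.2), S100a13 (78.4), S100a8 (6.28) and S100a9 (0.210), apart from the barely detected S100a3 and S100b. In BM it was S100a9 (37818 TPM), S100a8 (21883), S100a11 (1805), S100a6 (529), S100a4 (201), S100a10 (158), S100a13 (54.3) and S100a1 (43.7). S100a9 and S100a8 ranked 4 and 5 among all genes of BM, whereas S100a4, first in both untreated cultures, came after 4 other members in BM. With 1 library each, the order of neighbours such as S100a10 and S100a6 in GM-BMDM has no replicate behind it. The 8 members other than S100a8 and S100a9 held 0.195% of counts in GM-BMDM, 0.153% in M-BMDM and 0.101% in BM.

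GM-CSF and M-CSF cultures differed in S100a11, S100a1 and S100a8. S100a11 was 6.32-fold higher in GM-BMDM relative to M-BMDM (log2 ratio 2.66, 2.58 to 2.74) and 5.64-fold higher after 3 h of IL6 in both (2.50, 2.42 to 2.57). S100a1 was 5.76-fold higher in GM-BMDM relative to M-BMDM (2.53, 2.45 to 2.60) and 4.56-fold higher after 3 h of IL6 (2.19, 2.12 to 2.26). S100a8 was higher by 2.56 (1.98 to 3.19) and by 1.77 (1.29 to 2.28) in the same pairs, at levels of at most 8.87 CPM. In each pair, 3 of the 10 members passed 2-fold upwards and 0 downwards. Among all 10495 genes that reached 5 CPM in GM-BMDM or M-BMDM, 10.8% were higher and 8.65% lower in GM-BMDM, and after 3 h of IL6 these were 10.6% and 8.06% of 10451. Higher genes made up 55.5% of those counted in the untreated pair, or 43.2% when scaled by total counts, with the median ratio of all genes at -0.19.

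The growth factor difference was also tested with edgeR's quasi-likelihood test over both pairs, the untreated one and the one after 3 h of IL6, in 1 fit of all libraries. By this test 29% of 14719 genes rose with GM-CSF and 27.4% fell. The spread behind it comes only from how far the 3 h responses of both cultures differed from each other, which leaves 1 residual degree of freedom. In this fit edgeR pooled that spread over genes with infinite weight (prior degrees of freedom). A member's own spread therefore does not enter its p or standard error below, and small values do not stand for replicate cultures. With total counts the numbers of genes called were 3432 upwards and 4911 downwards, against 4265 and 4030 with TMM. Of the 8 members in the fit, 6 rose and 2 fell with GM-CSF. S100a11 rose by log2 2.58 (standard error 0.0898, adjusted p = 6e-179 by edgeR) and S100a1 by 2.36 (0.0874, edgeR adjusted p = 3.04e-158). S100a9 rose by 3.93 (0.347, edgeR adjusted p = 1.33e-28) and S100a8 by 2.13 (0.193, edgeR adjusted p = 3.86e-27), each at low counts. For S100a9 the pairs differed, at log2 6.41 (3.89 to 11.72) without IL6 and 3.08 (2.11 to 4.20) after 3 h. DESeq2 gave S100a9 a larger standard error of 1.27 (DESeq2 adjusted p = 0.00198). S100a13 rose by 0.53 (edgeR adjusted p = 7.1e-07) and S100a10 by 0.20 (edgeR adjusted p = 0.0235), while S100a4 fell by 0.48 (edgeR adjusted p = 1.05e-07) and S100a6 fell by 0.38 (edgeR adjusted p = 1.17e-05). These last 4, all below 2-fold in each pair, lost the call when the biological coefficient of variation was fixed at 0.2. That setting used edgeR's likelihood ratio test in place of the quasi-likelihood test, with edgeR adjusted p = 0.177 for S100a13, 0.669 for S100a10, 0.223 for S100a4 and 0.36 for S100a6. S100a10 also lost the call in DESeq2 (adjusted p = 0.0967), with total counts (edgeR adjusted p = 0.5) and without the filter on low counts (edgeR adjusted p = 0.05). Nothing in the labels says that the libraries came from separate cultures, so the spread may be technical.

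Beside the rise of S100a8 and S100a9, neutrophil markers differed in both directions. Of 16 neutrophil genes, 7 reached 5 CPM in GM-BMDM or M-BMDM, with 4 higher and 3 lower in GM-BMDM. Over all genes that reached 5 CPM in either library, 10.8% were higher and 8.65% lower. Of the neutrophil genes, Wfdc21 stood at 18.6 CPM in GM-BMDM against 0.0537 CPM in M-BMDM. Il1f9, an interleukin-1 family cytokine, stood at 31.1 against 0.376 CPM and Mmp8 at 513 against 9.61 CPM in the same libraries. Mmp9, the gelatinase of neutrophils, was lower, at 3.36 CPM in GM-BMDM against 53.0 CPM in M-BMDM. Csf3r, at 7.68 against 45.1 CPM, and Ifitm6, at 9.89 against 52.4 CPM, were lower as well in these libraries. The list summed to 606 CPM in GM-BMDM against 166 CPM in M-BMDM, and Ly6g and Retnlg were at 0 in both. Their part in the S100a8 and S100a9 differences was not tested.

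No member passed a test for 3 h of IL6. In M-BMDM after 3 h of IL6 against M-BMDM, the 6 members that reached 5 CPM had log2 ratios from 0.11 (S100a13) to 0.26 (S100a1, 0.17 to 0.35), all upward. In GM-BMDM after 3 h of IL6 against GM-BMDM, 7 members reached 5 CPM and had ratios from -0.26 (S100a8, -0.58 to 0.07) to 0.02 (S100a10). None was counted as 2-fold higher or lower, where 0.0906% of 9939 genes were higher and 0.272% lower in M-BMDM, and 0.0585% of 10255 higher and 0.107% lower in GM-BMDM. The edgeR test over both pairs called 0 of 8 members, with adjusted p from 0.885 to 0.998, against 0.19% of 14719 genes rising and 0.808% falling. At an unadjusted p under 0.05, edgeR and DESeq2 also called 0 of the 8. S100a9 had 10 counts in M-BMDM after 3 h of IL6 and 1 in untreated M-BMDM, a log2 ratio of 3.08 with the interval 0.26 to 8.52, both under 1 CPM.

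**Figure D4:**
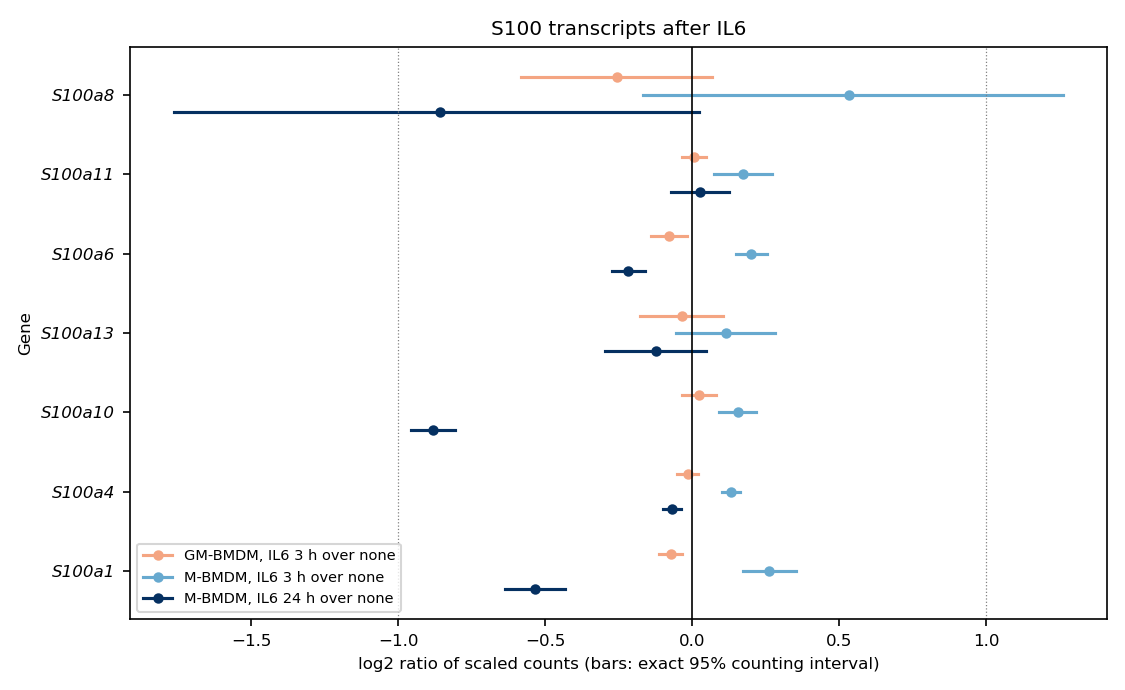
Log2 ratio of scaled counts (horizontal axis) of 7 S100 genes (vertical axis) after IL6 against no IL6, for GM-BMDM at 3 h and M-BMDM at 3 h and 24 h, 1 library each, with bars for the exact 95% counting interval and dotted lines at 2-fold. All 3 h points stay between -0.26 and 0.53, and S100a10 at 24 h lies at -0.88; S100a8 in M-BMDM was below 5 CPM.

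After 24 h of IL6, M-BMDM had less S100a10 and S100a1. S100a10 was at 105 CPM after 24 h against 193 CPM in untreated M-BMDM, 1.84-fold lower (log2 ratio -0.88, -0.96 to -0.81), and against 215 CPM after 3 h, 2.05-fold lower (-1.04, -1.11 to -0.97). S100a1 was at 62.1 CPM after 24 h against 90.1 CPM in untreated M-BMDM (-0.54, -0.64 to -0.43). The other 4 members with at least 5 CPM lay between -0.22 (S100a6) and 0.03 (S100a11). None of the 10 was counted as 2-fold different from untreated M-BMDM, where 11.5% of 10313 genes were higher and 8.93% lower. Against the 3 h library, 1 member was lower, S100a10, where 11.7% of 10274 genes were higher and 8.59% lower. With total counts the share of higher genes among those counted was 69.6%, against 57.7% with TMM, and S100a10 was no longer counted. The 24 h library has no counterpart in GM-CSF culture and no replicate, so no test was made.

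Genes that S100 proteins act through were counted beside the members. Of 12 S100 receptors and co-receptors, 7 were higher and 1 lower in GM-BMDM relative to BM (median log2 ratio 1.26), and 6 were higher and 2 lower in M-BMDM than in BM (median 1.05), beside medians of -0.04 and 0.02 over all genes in the same comparisons. Of all genes, 19.8% were higher and 22.3% lower in GM-BMDM relative to BM, and 20.1% and 23% in M-BMDM relative to BM. Cd68, higher in both cultures, is on the receptor list and on the macrophage list above. Against M-BMDM, GM-BMDM had 2 of the 12 receptors higher, Tlr4 and Cd33, and 1 lower, Cd14. There, 10.8% of all genes were higher and 8.65% lower. Cd14, which hands ligands to TLR4, had 491 CPM in GM-BMDM, 1507 CPM in M-BMDM and 7.36 CPM in BM. Tlr4 itself had 233 CPM in GM-BMDM, 100.3 CPM in M-BMDM and 26.6 CPM in BM. Ager, which encodes RAGE, had 0.230 CPM in GM-BMDM, 0.107 CPM in M-BMDM and 6.01 CPM in BM. After 24 h of IL6, 1 of the 12 receptors was higher and 2 lower against untreated M-BMDM, where 11.5% of all genes were higher and 8.93% lower. The higher one was Tlr4 (248 CPM against 100.3 CPM in untreated M-BMDM). The lower ones were Cd14 (529 CPM against 1507 CPM) and Cd69 (0.913 CPM against 5.75 CPM, near the 5 CPM limit).

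Partners inside the cell were counted in the same way. Of 14 binding partners, 3 were higher and 1 lower in GM-BMDM relative to BM (median log2 ratio 0.24), and 3 were higher and 2 lower in M-BMDM than in BM (median 0.28). Over all genes that reached 5 CPM, 19.8% were higher and 22.3% lower in GM-BMDM relative to BM. In M-BMDM relative to BM these shares were 20.1% and 23%. The scaffold gene Ahnak, which binds S100a10 with Anxa2, had 856 CPM in GM-BMDM, 1181 CPM in M-BMDM and 160.2 CPM in BM. Anxa2 itself was higher than in BM in both cultures but under 2-fold, at 545 CPM in GM-BMDM, 698 CPM in M-BMDM and 353 CPM in BM. Anxa1 had 1198 CPM in GM-BMDM against 513 CPM in M-BMDM, so it was 2.34-fold higher in GM-BMDM, where its partner S100a11 was higher as well. In GM-BMDM against M-BMDM, Anxa1 was the 1 partner of the 14 that was counted. Anxa1, Anxa2, Anxa5, Anxa6 and Anxa11 are on both the partner list and the annexin list. Of 12 annexins, 8 reached 5 CPM in GM-BMDM or BM, with 2 higher and 1 lower in GM-BMDM. In M-BMDM or BM 9 reached it, with 5 higher and 2 lower in M-BMDM, beside the shares of all genes given above. In GM-BMDM or M-BMDM 9 reached it, and Anxa1 and Anxa4 were higher and 0 lower in GM-BMDM, where 10.8% of all genes were higher and 8.65% lower.

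After 3 h of IL6, 0 receptors, partners and annexins were counted in either culture. Of all genes, 0.0906% were higher and 0.272% lower in M-BMDM, and 0.0585% and 0.107% in GM-BMDM. Of 10 factors known to act on S100a8 and S100a9, 3 were higher and 4 lower in GM-BMDM relative to BM, where 19.8% and 22.3% of all genes were. In M-BMDM relative to BM, 2 were higher and 3 lower, close to the 20.1% and 23% over all genes. Cebpe, a factor of late granulocyte development that is also on the neutrophil precursor list, had 2.25 CPM in GM-BMDM, 0.376 CPM in M-BMDM and 147 CPM in BM. Cebpb, a factor of emergency granulocyte production, had 136 CPM in GM-BMDM, 236 CPM in M-BMDM and 22.1 CPM in BM, the opposite order to S100a8. After 24 h of IL6, 0 of the 10 factors were higher and 2 lower against untreated M-BMDM, where 11.5% and 8.93% of all genes were, with Cebpb at 22.0 CPM against 236 CPM and Hif1a, a factor of the hypoxia response, at 113 CPM against 721 CPM.

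For each of the 8 members with at least 10 CPM in some library, the genes whose levels ran closest over the 6 libraries were found by the root mean square difference of centred log2(CPM + 2), among 10002 candidates. S100a9 ran closest to Ngp (0.187) and Ltf (0.340), both of neutrophil granules, then to S100a8 (0.595), and then to the globin genes Hbb-bt (0.664) and Hba-a1 (0.786) of red cells. S100a8 ran closest to Ltf (0.487), Ngp (0.493), Lcn2 (0.538) and S100a9 (0.595), followed by Prg2 (0.681), a granule protein of eosinophils. Genes of several marrow cell types, high in BM and low in every culture, are thus among the nearest to both. S100a1 ran closest to Tm4sf19 (0.0661) and Dcstamp (0.103), a fusion receptor of osteoclasts and giant cells, and S100a11 to Fgl2 (0.113), a prothrombinase of immune cells. S100a4 was nearest to Lgmn (0.147), a lysosomal protease, S100a10 to Pex11a (0.0810), S100a6 to Maip1 (0.0458) and S100a13 to Ppib (0.0268), a folding enzyme. With a pseudocount of 0.5, between 2 and 4 of the 5 nearest genes were shared with these lists for each member, so single names depend on that setting. The 6 points share their tissue of origin, and 5 of them are cultures, so nearness over them is a description only.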

How the data were processed

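RNA sequencing gave 1 table of estimated counts per gene for 6 mouse libraries. Per the submitters' processing notes, the authors used HISAT2, StringTie and DESeq2 on GRCm38, with versions and settings not given in the sources used here. The deposited expected counts were not whole for 24.7% to 27.7% of values above 0 in each library and were rounded for the tests. The 742 of 56278 rows without a gene name held from 0.24% to 0.522% of counts and were left out. TPM used the gene lengths of the deposited table.

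TMM factors came from edgeR 4.0.16 in R 4.3.3. Ratios between libraries carry exact 95% intervals (Clopper-Pearson, scipy 1.17.1, given both libraries' counts), and a ratio counted at 2-fold or more when this interval excluded 1 and the higher library had 5 CPM. List medians are over all listed genes found, with a prior count of 2. Bounds for genes at 0 use 3 counts. The edgeR quasi-likelihood fit held terms for cell kind, IL6 for 3 h and IL6 for 24 h, with Benjamini-Hochberg adjustment at 0.05 over 14719 genes that reached 1 CPM in any library. It used 1 residual degree of freedom shared over genes (biological coefficient of variation 6.45%), and the prior degrees of freedom were infinite, so no gene kept a spread of its own. Standard errors are the log2 change divided by the normal quantile of its p. The growth factor fit was run on counts simulated with known changes and its own spread. The interval was run on counts with known changes and counting error alone. Neither run can show how far separate cultures differ. Contrasts with BM or with 24 h rest on a lone library and were given no p. Alternatives used DESeq2 1.42.0, other scalings, limits and filters, 4 libraries or a fixed coefficient of variation of 0.2. With the fixed coefficient edgeR's likelihood ratio test was used, so the test changed along with the spread.

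All 10 members are described. From each gene list, up to 4 counted genes with the largest ratio could be named per comparison. Anxa2, Mmp9, Csf3r, Ifitm6, Ly6g, Retnlg and Mmp8 against BM were named after their values were seen. The members and lists were chosen with earlier results of these data known. Promoter windows came from RefSeq (GRCm38.p6), where 9 members had at least 1, and positions from GENCODE M21.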

Additional observations from a re-analysis of the deposited data

Results flagged for a closer look

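S100a1 and S100a6 are listed because the single 3 h difference ran upward in M-CSF culture and downward in GM-CSF culture, with both counting intervals excluding equal levels. S100a4, S100a8, S100a9 and S100a13 ran in the same directions, but their intervals in GM-CSF culture included equal levels. In M-CSF culture those of S100a8 and S100a13 did as well, and S100a8 and S100a9 were below 5 CPM there. The log2 ratio of S100a1 was 0.26 in M-BMDM after 3 h of IL6 over M-BMDM and -0.073 in GM-BMDM after 3 h of IL6 over GM-BMDM. For S100a6 these ratios were 0.20 in M-CSF culture and -0.078 in GM-CSF culture. Each ratio compares 1 library with 1 other, all 4 are below 2-fold, and the difference between the culture types was not tested, since it is the only residual degree of freedom of the fit.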

How the results depend on the processing

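No paired analysis was possible because each group had 1 library and no replicate number, and for the same reason no replicate could be left out. Over the numbers of members higher or lower in each pair and the numbers of genes called by each test, 157 values stayed within 1.5 times the reported one and 15 did not. Against M-BMDM, the 24 h library had 1 lower member at a 1.5-fold limit (S100a10), where the 2-fold limit gave 0. Against the 3 h library, where S100a10 alone was lower, the number was 0 with total counts and 0 at 3-fold, 2 at a minimum of 1 CPM (S100a8 and S100a10) and 2 at 1.5-fold (S100a1 and S100a10). Genes that rose with GM-CSF numbered 2703 by DESeq2 and 2548 with a fixed coefficient of variation, against 4265, and genes that fell 2276 and 1810, against 4030. At 3 h, genes that rose numbered 0 by DESeq2, 9 with total counts and 15 with a CPM filter of 5, against 28. Those that fell numbered 3 by DESeq2, 70 with total counts and 19 with a fixed coefficient of variation, against 119. The cause was not tested. Of 56 growth factor results of single members, 49 kept their call and 7 lost it, all 7 in S100a4, S100a6, S100a10 and S100a13, and the 56 at 3 h of IL6 stayed without a call. No called direction reversed. Another scaling moved a member's log2 ratio by at most 0.328, with total counts, in GM-BMDM over BM, where S100a6 went to -0.27 and upper-quartile or pair-alone scaling added S100a13 to the higher members. Total counts also turned small ratios of S100a4 and S100a13 at 24 h against none (to 0.07 and 0.01), and S100a11 changed sign around 0 at 3 h in GM-BMDM and at 24 h. Depth limits S100a3 and S100b in all libraries and S100a9 in M-BMDM.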
